A study of Mus musculus with 4 samples.

Results

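The genes described here are those of the cytosolic ribosomal proteins, the protein parts of the ribosomes that translate nuclear-encoded messages. They were chosen by symbol: Rpl or Rps followed by a number, plus Rplp0, Rplp1, Rplp2 and Rpsa, without pseudogenes and without the Rps6k kinases. This found 50 of the 18193 genes that had a probe set with 1 gene symbol, of which 24 belong by name to the small subunit, 24 to the large subunit and 2 to the stalk. A further 31 symbols that match the rule appear only on probe sets with several symbols. They are not among the 50, which are thus only part of the family. By its symbol the rule also takes in Rps19bp1, a protein that binds Rps19 and is no part of the ribosome. It also takes in Rpl7l1, an Rpl7-like protein. The cells were MC3T3-E1, a line of mouse preosteoblasts derived from newborn C57BL/6 calvaria, immortal and fibroblast-like in form. One array each was made of cells kept in osteogenic medium for 3 days, normal medium for 3 days, osteogenic medium for 6 days and normal medium for 6 days. All 4 cultures had MEM α with 10% fetal bovine serum, and the osteogenic medium added 10 mM beta-glycerophosphate together with ascorbic acid 2-phosphate at 150 µM, the agents used to start collagen matrix formation and mineral deposition in these cells. The comparisons ask how the RNA of these genes differed between the media at each day and between the days in each medium. With 1 array per group no difference between arrays has a replicate error, and none is given a p-value.

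A ribosome needs each of its proteins in about equal number, and a growing cell makes them in large amounts. Their messages belong to the TOP class, named for a terminal oligopyrimidine tract, a run of C and T at the very start of the transcript through which mTOR signalling and the protein Larp1 set how much of the message is translated. Control of these genes is therefore largely at translation, which an array of total RNA does not see. In osteoblasts ribosome supply is of interest because the cells secrete large amounts of collagen, and because inherited defects of ribosomal proteins can disturb bone growth.

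The start windows below show how far such a run is found at the annotated starts, which need not be the base where transcription begins. Of the 50 genes, 44 had an entry among the RefSeq promoter sequences of assembly GRCm38.p6, with 52 annotated starts between them. A run of at least 8 C or T lay within the window of 30 bases that begins 10 bases before the start at 17 of the 52 starts, 32.7%, and at 11.2% of 32799 starts of other genes. The first 5 windows are of genes whose signals were near the top of the range, and the others are of genes described below by their differences. All but those of Rps27l hold a run of at least 8, so the windows shown do not represent the 52 starts. Other bright or described members, not shown, had shorter runs, such as 7 in Rplp0, 5 in Rpsa, 4 in Rps4x and 3 in Rpl37. Capitals mark the longest run of C or T, and the last window, whose longest run had 4 bases, has none. Rpl38 lies at chr11:114668570-114668599 on the plus strand, Rps10 at chr17:27635225-27635254 on the minus strand, Rps18 at chr17:33955646-33955675 on the minus strand, and Rplp2 at chr7:141447641-141447670 on the plus strand. Rpl7a, shown for its long run, lies at chr2:26910797-26910826 on the plus strand. Rps6 lies at chr4:86857348-86857377 on the minus strand, Rpl14 at chr9:120571507-120571536 on the plus strand, Rps27 at chr3:90213629-90213658 on the minus strand and Rpl22l1 at chr3:28805498-28805527 on the plus strand. The starts of Rps27l lie at chr9:66946076-66946105 and chr9:66946403-66946432, both on the plus strand.
Rpl38: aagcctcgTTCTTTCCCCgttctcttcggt
Rps10: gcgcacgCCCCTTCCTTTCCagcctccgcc
Rps18: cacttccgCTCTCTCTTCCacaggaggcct
Rplp2: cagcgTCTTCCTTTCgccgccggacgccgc
Rpl7a: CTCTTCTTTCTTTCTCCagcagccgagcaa
Rps6: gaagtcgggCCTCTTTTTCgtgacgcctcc
Rpl14: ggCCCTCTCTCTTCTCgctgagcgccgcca
Rps27: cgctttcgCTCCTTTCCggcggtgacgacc
Rpl22l1: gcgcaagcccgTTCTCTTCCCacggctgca
Rps27l, upstream start: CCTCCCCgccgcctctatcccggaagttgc
Rps27l, downstream start: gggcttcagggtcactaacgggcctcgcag
The run had 10 bases in Rpl38, 13 in Rps10, 11 in Rps18 and 17 in Rpl7a. Rps27, a small-subunit protein, had a run of 9, whereas its paralog Rps27l had at most 7 at the upstream start and 4 at the downstream start. Most member starts likewise lacked a run of 8 or more, so this does not set Rps27l apart from the other members. In the 300 bases around the start, searched on both strands with each motif searched separately so that matches may overlap, the ETS core CCGGAA occurred at 53.8% of the member starts and 14.8% of other starts. The Sp1 core GGGCGG occurred at 53.8% of the member starts and 35.6% of other starts. The YY1 core GATGGC occurred at 15.4% and the TATA box letters TATAAA at 11.5% of the member starts, against 14.1% and 13.6% of other starts. A match shows only that these letters are present.

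Each value is the intensity of a probe set, a group of short oligonucleotides against 1 transcript, on a linear scale, after the 4 arrays were brought to a common 75th percentile. Signals below 57.8, the 50th percentile of all signals, were set to that floor. The brightest probe set by mean stood for each gene, and a gene was measured in a comparison when at least 1 of the 2 arrays was above the floor. Differences are log2 of osteogenic over normal medium, or of day 6 over day 3, and a difference of 1 is 2-fold. Of the 50 genes, 46 were measured. Rpl39l, Rpl3l, Rps16 and Rps4l were not above the floor on any array. Rps16 is a core protein of the small subunit, and its only probe set with 1 symbol had at most 17.1. Probe sets differ in how strongly they bind, so a gene's signal shows where its probe set lay in the array's range and does not rank the RNA of different genes.

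The ribosomal protein genes filled the top of that range. Of the 50 brightest probe sets of all, 38 carried a ribosomal protein symbol, 18 of them as their only symbol, and of the 100 brightest 80 did. Probe sets with a ribosomal protein symbol held 16.5% of the summed signal at day 3 in osteogenic medium and 17.5% at day 3 in normal medium, and 17.4% at day 6 in osteogenic medium and 16.3% at day 6 in normal medium. Among the 50 genes, 35 had a mean signal of 20000 or more. Rpl38, a large-subunit protein known in mouse for its part in the translation of Hox messages, had 67313 in osteogenic and 79324 in normal medium at day 3. At day 6 Rpl38 had 69068 in osteogenic and 66214 in normal medium. Its probe set was the brightest of all on both normal-medium arrays. Rps10, a protein of the small subunit's head, had 65491 in osteogenic and 74244 in normal medium at day 3, and 66169 in osteogenic and 64928 in normal medium at day 6. The highest signal on any probe set was 71936 on the array of osteogenic medium at day 3, 79324 of normal medium at day 3, 80749 of osteogenic medium at day 6 and 66214 of normal medium at day 6. Whether these probe sets were compressed by saturation was not tested, and the values carry no flag for it.

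**Figure D1:**
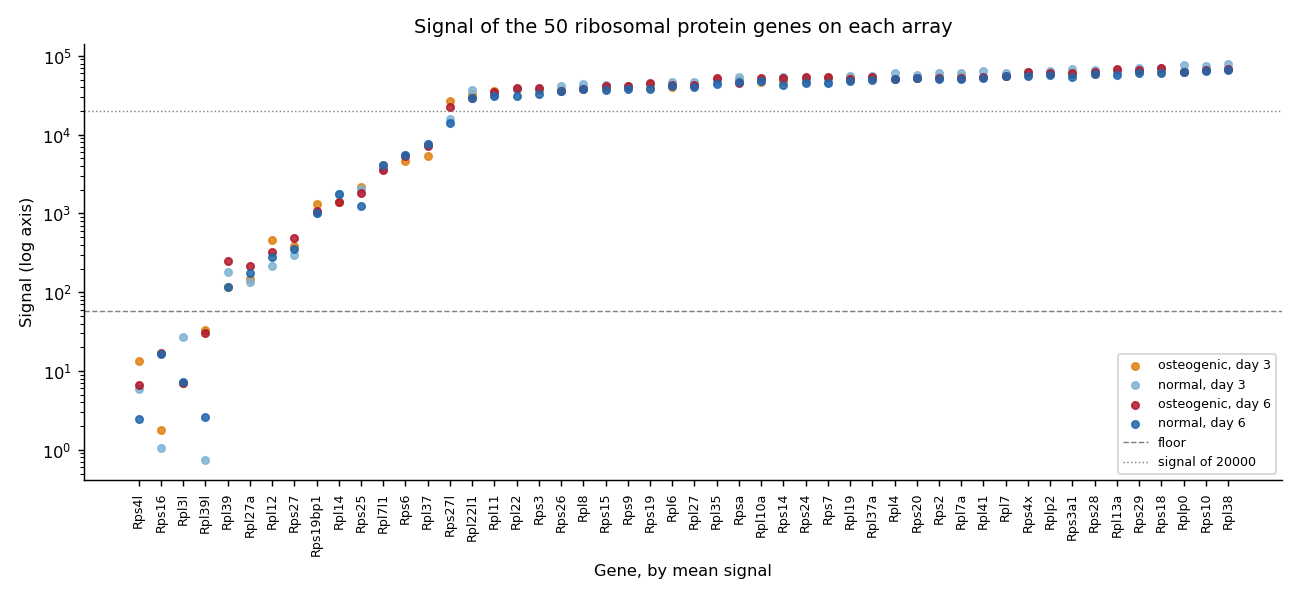
The signal of each of the 50 ribosomal protein genes on the 4 arrays, on a log axis, with genes ordered by their mean. The dashed line is the floor of 57.8 and the dotted line is 20000. The 35 genes right of the dotted line's crossing lie in a narrow band near the top of the range, and 4 genes lie below the floor on all arrays.

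The osteoblast markers in the annotation, Col1a1, Col1a2, Sparc, Sp7, Alpl and Ibsp, were above the floor on all 4 arrays. Their summed signal, most of it from Col1a1, Col1a2 and Sparc, was 174254 in osteogenic and 195150 in normal medium at day 3. At day 6 it was 182047 in osteogenic and 164069 in normal medium. Col1a1, Col1a2 and Sparc were each lower in osteogenic than in normal medium at day 3 and higher at day 6. Sp7, Alpl and Ibsp were higher in osteogenic medium at both days. Ibsp, a mineral-binding bone protein, had 4468 in osteogenic and 386 in normal medium at day 3, and 11064 in osteogenic and 255 in normal medium at day 6. Alpl, the alkaline phosphatase of mineralising cells, had 2394 in osteogenic and 815 in normal medium at day 3, and 1756 in osteogenic and 540 in normal medium at day 6. Above the floor on all arrays were 1 of 5 leukocyte, 0 of 4 endothelial, 0 of 3 adipocyte, 1 of 4 skeletal muscle and 3 of 4 epithelial markers. The epithelial sum was 644 in osteogenic and 385 in normal medium at day 3, and 967 in osteogenic and 260 in normal medium at day 6. Krt14 and Cdh1 were higher on both osteogenic arrays than on both normal ones, and Krt5 was not above the floor on any array. Epcam went the other way at day 3, with 99.5 in osteogenic and 157 in normal medium. At day 6 Epcam had 169 in osteogenic and 103 in normal medium. The part of these markers in the results was not tested. The ratio of the 5′ to the 3′ Gapdh control probe set was 1.30 to 1.32, so the arrays were alike in this sign of RNA integrity. The array of osteogenic medium at day 6 stood apart in the 5′ probe set for 18S ribosomal RNA, which had 739 there, against 5137 in normal medium at day 6. The same probe set had 8407 in osteogenic and 9193 in normal medium at day 3. No value can be given without that array, since it is the only one of its group, and the part of this difference in the results was not tested. No slide, scan or extraction batch is given for the arrays, and batch and group cannot be told apart. In bulk RNA, fewer cells of a type and less RNA per cell cannot be told apart either.

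At day 3 the ribosomal protein genes lay slightly lower in osteogenic than in normal medium. The median log2 difference of the 46 measured genes was −0.13, a fold of 0.913, and the direction turned to 0.020 after quantile normalization and to 0.0056 when the arrays were shifted to the spiked-in cre controls described below. It also turned to 0.035 over the 21 members left without probe sets whose ID ends in _x_at, _s_at or _a_at. These endings mark possible binding to several transcripts, of the same gene or of related genes. Over the 10 members left without the brightest 1% of probe sets the median turned to 0.083. Of the 46, 35 were below zero and 11 above, where 49% of all 11861 measured genes were below zero and their median was 0.0092. Under quantile normalization 41.3% of the members were below zero, in place of 76.1%. That method gives every array the same values at the same ranks, and 80 of the 100 brightest probe sets carried a ribosomal protein symbol. It thus removes most of a shift that these genes share and cannot show whether the direction holds. A share of 45.7% was below zero under the shift to the cre controls. Rpl12, a protein at the base of the stalk, was the 1 member past 2-fold, on the side of osteogenic medium, where 1.99% of all genes were 2-fold higher. It is treated with the dim probe sets below.

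Among the 35 genes at 20000 or more, 31 were lower in osteogenic medium at day 3. Their median was −0.13 and their range −0.25 to 0.18. Rplp0, which anchors the stalk that recruits the elongation factors, had 63691 in osteogenic and 75758 in normal medium, a log2 difference of −0.25. Its stalk partner Rplp2 had 58192 in osteogenic and 64759 in normal medium, −0.15. Both stalk proteins were thus lower in osteogenic medium at that day. Rpl38 differed by −0.24 and Rps10 by −0.18, and Rps18, which sits beside Rps10 in the head of the small subunit, by −0.12. Rps29, a small zinc-binding protein of the same head, had 63464 in osteogenic and 69408 in normal medium, −0.13. Rpsa, the small-subunit protein also known as the laminin receptor, had 48867 in osteogenic and 54158 in normal medium, −0.15. Rpl7, Rps4x and Rpl22l1 had differences of −0.13, −0.11 and −0.17. Of these genes Rpl7, Rps4x, Rps10, Rps18 and Rps29 turned above zero after quantile normalization, at 0.051, 0.034, 0.040, 0.076 and 0.043, and Rplp2 came to 0. Rpl7, Rps4x, Rps18 and Rps29 were also above zero after the shift to the cre controls, at 0.0042 to 0.026. Rps10 was at 0.65 without probe sets whose ID marks possible binding to related transcripts, but this was read from a dim probe set. That probe set had 90.5 in osteogenic and 9.44 in normal medium at day 3. The normal-medium signal lay below the floor and was set to it, so the value of 0.65 depends on the floor. It gives no direction for the bright probe sets of Rps10.

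A measure of probe error came from genes with another probe set. In 16 of the genes at 20000 or more the next-brightest probe set was also at 20000 or more, and at day 3 it had the same sign in 10 of them. The error of a single probe set was 0.12 on the log2 scale, which is about the size of the median difference. It is the root mean square difference between the 2 probe sets, divided by the square root of 2. It applies to 1 gene and not to a median over genes. At day 6 the sign was the same in 15 of 16, with an error of 0.069. Probe sets of 1 gene share the array and the culture, so this covers the error of the probes and not that of the cells.

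At day 6 the direction was the opposite, with the ribosomal protein genes slightly higher in osteogenic than in normal medium. The median log2 difference of the 46 measured genes was 0.10, a fold of 1.07. It was above zero under each scaling, at 0.0036 after quantile normalization and 0.043 after the shift to the cre controls. Of the 46, 39 were above zero and 7 below, where 51.2% of all 11901 measured genes were above zero and their median was 0.013. The share above zero was 84.8%, but 50% under quantile normalization, 60.9% under the shift to the cre controls and 65.2% under a shift to a common median. Rpl39 was the 1 member past 2-fold, again on the side of osteogenic medium, where 4.18% of all genes were 2-fold higher.

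Among the 35 genes at 20000 or more, 32 were higher in osteogenic medium at day 6, with a range of −0.025 to 0.33. Rpl22, a large-subunit protein that in mouse represses its own paralog Rpl22l1, had 39593 in osteogenic and 31390 in normal medium, the highest of these 35 differences at 0.33. Rpl22l1 itself had 28965 in osteogenic and 29130 in normal medium, −0.0082, so the paralogs differed in size at day 6. Under the alternatives run, Rpl22 stayed between 0.18 and 0.33 and Rpl22l1 between −0.069 and −0.0082. At day 3 Rpl22 differed by −0.0030 and Rpl22l1 by −0.17, and the sign of Rpl22 there depended on the alternative.

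Rps18 had 69474 in osteogenic and 60996 in normal medium at day 6, a log2 difference of 0.19. Rps4x, the X-linked small-subunit protein, had 62851 in osteogenic and 55969 in normal medium, 0.17. The stalk proteins were closer to no difference, Rplp0 at 0.014 and Rplp2 at 0.10. Rpl38 at 0.061, Rps10 at 0.027 and Rpl7 at −0.00015 were also near zero, and Rpsa at −0.025 was below it. The large-subunit and stalk genes at 20000 or more had a median of 0.075 and the small-subunit genes one of 0.14. At day 3 the 2 medians were −0.14 and −0.13.

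The spiked-in cre controls, fragments of a phage gene that are added at hybridisation and do not come from the cells, lay in the same range and moved with these genes. The mean of their 4 probe sets was 45988 in osteogenic and 50556 in normal medium at day 3, a log2 difference of −0.14. At day 6 it was 44835 in osteogenic and 42993 in normal medium, 0.061. Both differences had the sign of the ribosomal protein genes, at day 3 with nearly the same size. When the arrays were shifted to the cre controls, the median of all genes moved to 0.14 at day 3 and to −0.046 at day 6. Relative to that median the ribosomal protein genes lay at −0.13 at day 3 and 0.089 at day 6, where they lay at −0.14 and 0.091 before that shift. The shift multiplies all probe sets of an array by the same factor, so these relative values could change only through the floor. Their near equality is therefore no test of the difference. The other 91 genes at 20000 or more had medians of −0.083 at day 3 and −0.023 at day 6. At day 3 they thus lay on the same side of zero as the ribosomal protein genes, and at day 6 on the other side. The part of signal level and hybridisation in the ribosomal protein values was not tested further.

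**Figure D2:**
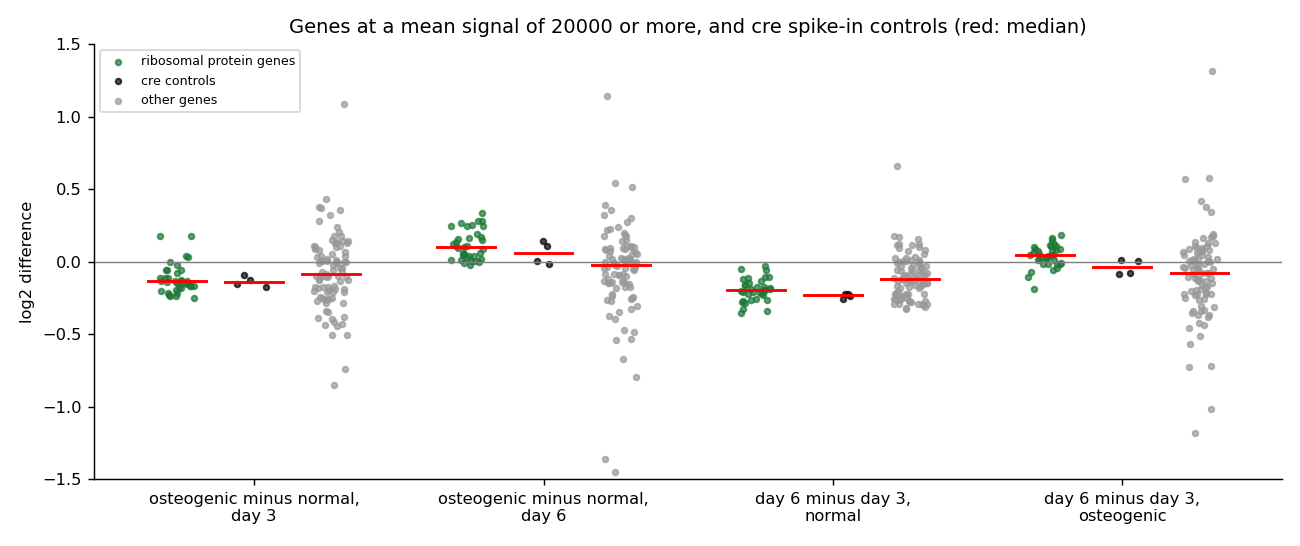
Log2 differences of the 35 ribosomal protein genes at a mean signal of 20000 or more, the 4 cre control probe sets and the 91 other genes at that signal, in 4 comparisons. Points are genes or probe sets, red bars are medians, and the controls follow the ribosomal protein genes except in the comparison of days in osteogenic medium.

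In normal medium the ribosomal protein genes lay lower at day 6 than at day 3. The median of the 46 measured genes was −0.18, a fold of 0.881, with 41 below zero and 5 above, and it turned to 0.050 after the shift to the cre controls and to 0.011 without the brightest 1% of probe sets. Of all 11736 measured genes 52.3% were below zero, and their median was −0.015. None of the 46 passed 2-fold, where 1.48% of all genes did in either direction. The share of the 46 below zero was 89.1%, but 50% under quantile normalization, 76.1% under a shift to a common median and 23.9% under the shift to the cre controls. Every one of the 35 genes at 20000 or more was lower at day 6, by log2 differences between −0.35 and −0.028. Rpl22l1 had the lowest of them, with 29130 at day 6 and 37207 at day 3. The cre controls differed by −0.23 and the other 91 genes at 20000 or more by a median of −0.12. After the shift to the cre controls the median of all genes moved to 0.21. The ribosomal protein genes lay at −0.16 relative to it, a value that such a shift leaves nearly unchanged by construction.

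In osteogenic medium the 2 days differed less. The median was 0.040, with 31 of 46 above zero, where 49.9% of all 11947 measured genes were. It turned to −0.013 after quantile normalization and to −0.040 without the probe sets ending _x_at, _s_at or _a_at. Quantile normalization left 41.3% above zero in place of 67.4%, and the deposited values without further scaling and the shift to the cre controls each gave 78.3%. Rpl39 was the 1 member past 2-fold, higher at day 6, where 3.7% of all genes were 2-fold higher. The cre controls differed by −0.037 and the other 91 genes at 20000 or more by a median of −0.075, both on the other side of zero. The comparisons of media and of days share arrays, so their values are not independent of each other.

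At the common 75th percentile the 4 arrays had an order for the bright genes. It was not kept under quantile normalization, which gives the brightest ranks the same values on every array and so cannot test it. Nor was it kept under the shift to the cre controls. Under both, the medians between media and between days in normal medium came nearer to zero or turned. Between days in osteogenic medium the shift to the cre controls did neither. There the members' median lay 0.043 above that of all genes, itself 0.034, with 78.3% of the members above zero in place of 67.4%. The median signal of the 35 genes was 50879 in osteogenic and 55193 in normal medium at day 3, and 52593 in osteogenic and 48147 in normal medium at day 6. The array of normal medium at day 3 held the highest signal for 25 of the 35, and that of osteogenic medium at day 6 for 9. The array of normal medium at day 6 held the lowest for 28. By the median the 2 osteogenic arrays lay between the 2 normal ones. The mean of the cre controls was likewise highest on the array of normal medium at day 3 and lowest on that of normal medium at day 6. Highest and lowest arrays were not counted over other genes. Of the other 91 genes at 20000 or more, 57 were lower and 34 higher in osteogenic medium at day 3. At day 6, 52 were lower and 39 higher in osteogenic medium. In normal medium 70 of the 91 were lower and 21 higher at day 6 than at day 3. The medium difference at day 6 minus that at day 3 had a median of 0.22 over the 46 genes, with 41 above zero where 48.8% of all genes were, and it turned to −0.0073 after quantile normalization. It was 0.022 after the shift to the cre controls, with 65.2% above zero in place of 89.1%. Quantile normalization left 43.5% above zero.

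The difference was also read against signal. Probe sets that list a ribosomal protein gene were sorted by mean signal, including 103 measured ones that list several symbols, mostly a gene and its pseudogenes, and that name no gene here. At day 3 the median difference was −0.17 for the 59 probe sets at 50000 or more, with 56 of them below zero. It was −0.075 for 84 between 20000 and 50000, 0.069 for 29 between 1000 and 20000, and −0.027 for 27 under 1000. Over the 64 probe sets with 1 symbol at 20000 or more, Pearson's r between the difference at day 3 and log2 signal was −0.50. It was also −0.50 over the 79 with several symbols, but −0.0050 over the 59 of either kind at 50000 or more and −0.19 over all 199 measured. At day 6 it was −0.42 over the 64 and −0.045 over the 79. These points share arrays and often sequence, so r is a description. At day 6 the medians were 0.10, 0.13, 0.30 and 0.00 in the same order of bins. The medians of the 2 bins at 20000 or more thus changed side between the days, and that of the bin between 1000 and 20000 was above zero at both.

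**Figure D3:**
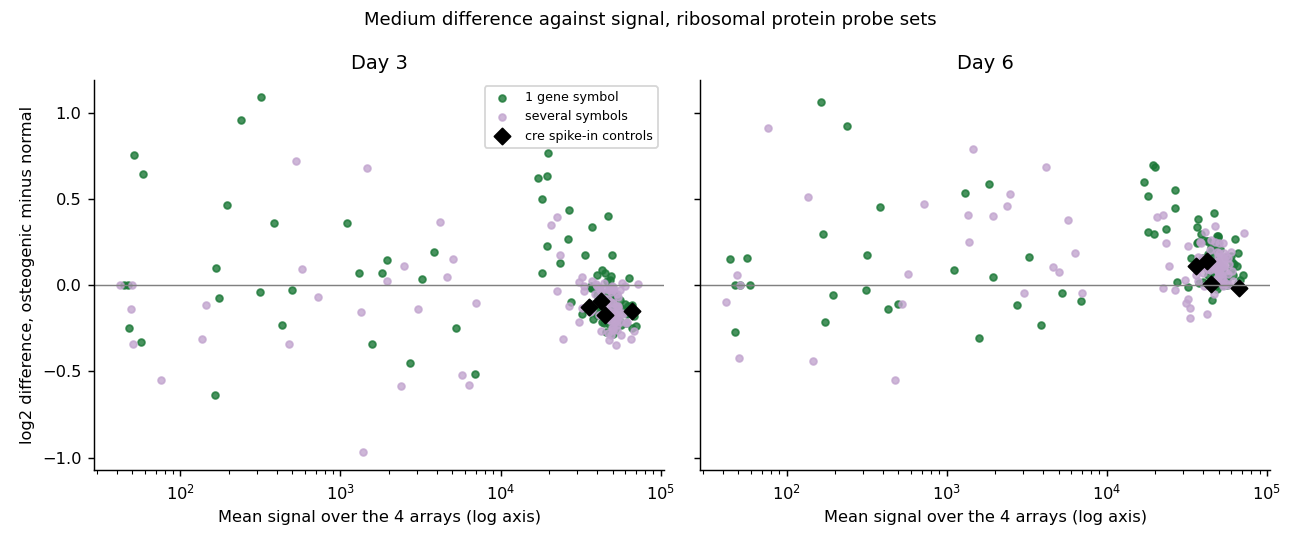
Log2 difference between osteogenic and normal medium against mean signal on a log axis, for each measured probe set that lists a ribosomal protein gene, at day 3 and day 6. Green points list 1 symbol, purple points several, and black diamonds are the cre controls. The dense cloud at the right lies below zero at day 3 and above it at day 6, together with most of the controls.

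Rps27l was higher in osteogenic medium by at least 0.68 on the log2 scale at both days, which no other member was. It is the paralog of Rps27 that is known as a target of p53. Its signal was 26943 in osteogenic and 15820 in normal medium at day 3, a fold of 1.70. At day 6 it was 22666 in osteogenic and 14118 in normal medium, a fold of 1.61. Both osteogenic arrays were thus above both normal ones. Rps27l has 3 probe sets, all with IDs ending _x_at or _a_at. Their log2 differences were 0.77, 0.63 and 0.62 at day 3 and 0.68, 0.69 and 0.60 at day 6. Over the alternatives run its difference stayed between 0.67 and 0.90 at day 3 and between 0.62 and 0.68 at day 6. Between days it differed by −0.25 in osteogenic and −0.16 in normal medium. With a mean signal of 19887 it lies just under the limit of 20000 used for the bright genes, below the densest part of the range. Rps27, read from its only probe set with 1 symbol, had 383 in osteogenic and 299 in normal medium at day 3, and 491 in osteogenic and 358 in normal medium at day 6. Its differences of 0.36 and 0.46 had the same sign and came from a probe set far lower in the range.

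The medium was also tested over both days in a limma fit with medium and day as terms, on the 11259 genes measured at both days, with Benjamini-Hochberg adjustment over all of them. The fit leaves 1 residual degree of freedom, into which a medium effect that differs by day also falls. No ribosomal protein gene was called for medium at an adjusted p under 0.05, and 0% of all genes were. Rps27l had the lowest p among the 46, with a log2 difference of 0.73 ± 0.18 (SE) and an adjusted p of 0.241 in limma. It was also the 1 member at an unadjusted p under 0.05, which 14.8% of all genes reached, and with each gene's own residual variance 3 members did, as did 7.53% of all genes. For day 0 of the 46 were called at an adjusted p under 0.05 in limma, where 0% of all genes were, and 0 of the 46 were at an unadjusted p under 0.05, where 7.35% of all genes were. The lowest adjusted p for day in limma was 0.676, at Rpl27a.

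Probe sets of the same gene disagreed for some members. The following 3 were chosen after their values were seen. Rps24, a small-subunit protein needed to process the ribosomal RNA precursor, has 4 probe sets at 20000 or more, with log2 differences of 0.33, 0.40, 0.054 and −0.077 at day 3. At day 6 they were 0.38, 0.42, 0.28 and 0.25. All 4 were thus above zero at day 6, and the spread at day 3 exceeded the median difference of the members. Rps9, which helps keep the decoding centre accurate, had 0.43 on one and −0.057 on the other of its bright probe sets at day 3, and 0.45 and 0.12 at day 6. Rpl13a, known in human cells for silencing inflammatory messages when it leaves the ribosome, had 0.50, 0.27, −0.012 and 0.039 at day 3. At day 6 its values were 0.52, 0.55, 0.25 and 0.27. In Rps9 the dimmer of these probe sets had the higher difference at both days, and in Rps24 and Rpl13a the 2 dimmer ones did.

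**Figure D4:**
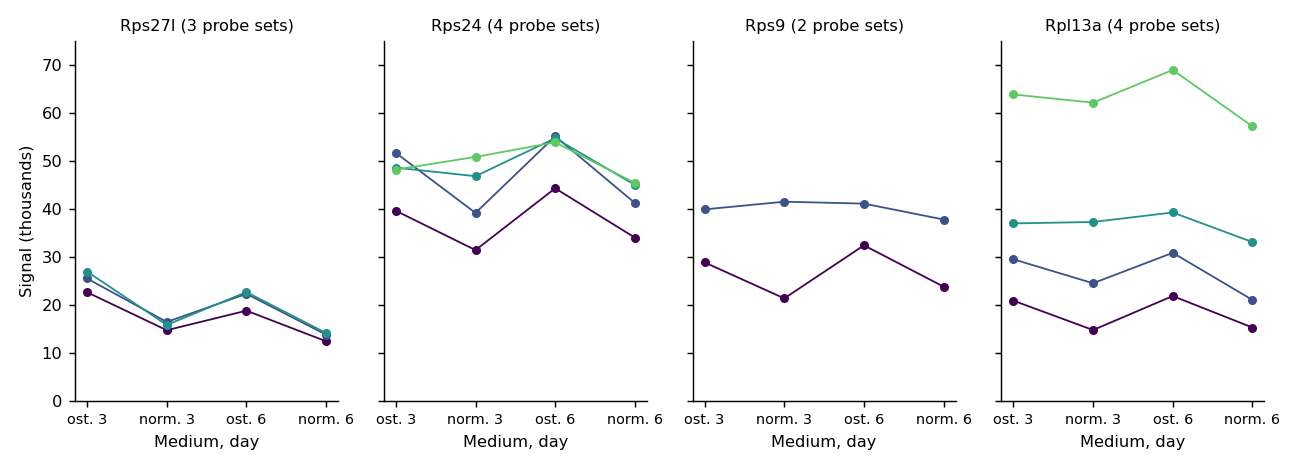
Signal of the probe sets of Rps27l, Rps24, Rps9 and Rpl13a on the 4 arrays, without the dim ones of Rps24 and Rps9, where ost. is osteogenic and norm. is normal medium, at day 3 and day 6. Lines join the values of 1 probe set. The probe sets of Rps27l follow each other, while those of the other 3 genes differ in shape at day 3.

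Some members were read from a dim probe set with 1 symbol, while other probe sets that list them beside further symbols were not used for them. Rpl12 had 456 in osteogenic and 215 in normal medium at day 3, a fold of 2.13, and 321 in osteogenic and 284 in normal medium at day 6, a fold of 1.13. Rpl39, a short protein lining the exit tunnel, had 116 in osteogenic and 180 in normal medium at day 3, a log2 difference of −0.64. At day 6 Rpl39 had 246 in osteogenic and 118 in normal medium, a fold of 2.09. The order of the arrays for Rpl39 differed between the days, at signals near the floor. Rpl27a had 146 in osteogenic and 137 in normal medium at day 3, and 215 in osteogenic and 175 in normal medium at day 6. Its log2 difference between day 6 and day 3 was 0.56 in osteogenic and 0.36 in normal medium.

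Members between 1000 and 20000 moved in both directions. Rps25, which some viral messages need to start translation, had 1841 in osteogenic and 1228 in normal medium at day 6, a log2 difference of 0.58. At day 3 it had 2172 in osteogenic and 2070 in normal medium, 0.069 on the log2 scale, so the array of normal medium at day 6 was the low one. Rpl37, a zinc-binding protein of the large subunit, had 5352 in osteogenic and 7663 in normal medium at day 3, −0.52, the other 3 arrays lying between 7148 and 7663. At day 6 Rpl37 differed by −0.093. Rps6, the small-subunit protein phosphorylated by S6 kinase below mTOR, had 4609 in osteogenic and 5478 in normal medium at day 3, −0.25, and differed by −0.044 at day 6. Rpl14 had 1399 in osteogenic and 1771 in normal medium at day 3, and 1411 in osteogenic and 1747 in normal medium at day 6. Rpl14 was thus lower in osteogenic medium at both days, by −0.34 and −0.31, and stayed so under the alternatives run. Of the 2 genes that match the rule by name only or as relatives, Rps19bp1 differed by 0.36 at day 3 and 0.088 at day 6, and Rpl7l1 by 0.19 at day 3 and −0.23 at day 6.

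Paralogs with restricted expression gave no signal. Rpl39l, known from testis, had at most 33.3, Rpl3l, known from heart and skeletal muscle, at most 27.3, and Rps4l at most 13.3 on any array, all under the floor of 57.8. Rplp1, the third stalk protein, Rpl3, Rpl10, Rpl36a and Rpl36al share their probe sets with other symbols and are given no value of their own. The ubiquitin fusion Rps27a and Rpl10l were not analysed here.

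Other genes of translation and ribosome making were read from lists by function, and not all lists had the direction of the ribosomal proteins at day 3. Fau, a ribosomal protein made as a fusion with a ubiquitin-like protein and left out by the symbol rule, had 44293 in osteogenic and 47513 in normal medium at day 3, −0.10. At day 6 it differed by 0.15. After the shift to the cre controls it differed by 0.035 at day 3 and 0.089 at day 6, so its direction at day 3 turned. Other TOP transcripts, 9 measured of 10 listed, had a median of −0.18 at day 3 with 8 below zero, and it was between −0.20 and −0.045 under the alternatives run. After the shift to the cre controls, which gave −0.045, 5 of the 9 were below zero. At day 6 their median was 0.020 with 6 above zero, and it turned to −0.067 under quantile normalization, −0.031 under a shift to a common median and −0.040 under the shift to the cre controls. Among them Pabpc1, the poly(A)-binding protein, had 41311 in osteogenic and 54371 in normal medium at day 3, −0.40.

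Ribosome assembly factors, 35 measured of 36 listed, had a median of 0.20 at day 3, with 30 above zero and 5 below. The median stayed between 0.17 and 0.33 under the alternatives run, where 51% of all genes were above zero in the main setting. Nhp2, a core protein of the box H/ACA particles that guide pseudouridine formation, had 10751 in osteogenic and 5940 in normal medium at day 3, a fold of 1.81. At day 6 the assembly median was 0.082 with 21 of 35 above zero, and Rrp12, which acts in export of the subunits, had 250 in osteogenic and 110 in normal medium, a fold of 2.27. In osteogenic medium 30 of the 35 assembly genes were lower at day 6 than at day 3, as were 50.1% of all genes, with a median of −0.33 that stayed between −0.33 and −0.26.

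Mitochondrial ribosomal proteins, which belong to the separate ribosome of that organelle, had a median of 0.28 at day 3, with 69 of 76 above zero, and 0.16 at day 6, with 60 of 76. Above zero were 51% of all genes at day 3 and 51.2% at day 6. Their medians stayed between 0.26 and 0.42 at day 3 and between 0.10 and 0.16 at day 6. Past 2-fold at day 3 were 2 of the 76, Mrps11 at a fold of 2.21 and Mrpl12 at 2.09, and at day 6 Mrpl33 at 2.95. Of all genes 1.99% were 2-fold higher at day 3 and 4.18% at day 6, so these counts were near or below the share over all genes. The mitochondrial list thus lay on the side of osteogenic medium at both days, and the cytosolic members, at the common 75th percentile, only at day 6. The lists also differed in signal. Mrps11, Mrpl12 and Mrpl33 had at most 7903 on any array, while 35 of the 50 cytosolic members had a mean of 20000 or more. Cytosolic ribosomal protein probe sets between 1000 and 20000 had medians above zero at both days, 0.069 at day 3 and 0.30 at day 6. The difference between lists and the part of signal level in it were not tested.

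Elongation factors had medians of 0.0020 at day 3 and 0.10 at day 6 over 7 genes, and initiation factors 0.074 and 0.027 over 30. Eef2, the factor that moves the ribosome along the message, had 34112 in osteogenic and 43478 in normal medium at day 3, −0.35. Eif2b2, a subunit of the exchange factor for Eif2, was the 1 initiation factor past 2-fold at day 6, with 2328 in osteogenic and 1062 in normal medium. RNA polymerase I genes had medians of 0.12 and 0.024 over 14, and regulators around mTOR, Myc and TOP translation −0.085 and −0.065 over 20 and 19. Under other settings the sign turned for both medians of elongation and of initiation factors, for RNA polymerase I at day 6 and for the regulators at day 3. Of these regulators Eif4ebp1, the repressor of cap-dependent translation that mTOR phosphorylates, had 8100 in osteogenic and 3250 in normal medium at day 6, a fold of 2.49. At day 3 it had 4717 in osteogenic and 4570 in normal medium, 0.046. Larp1, which binds TOP messages, had 2495 in osteogenic and 3876 in normal medium at day 3, −0.64, and differed by −0.11 at day 6.

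**Figure D5:**
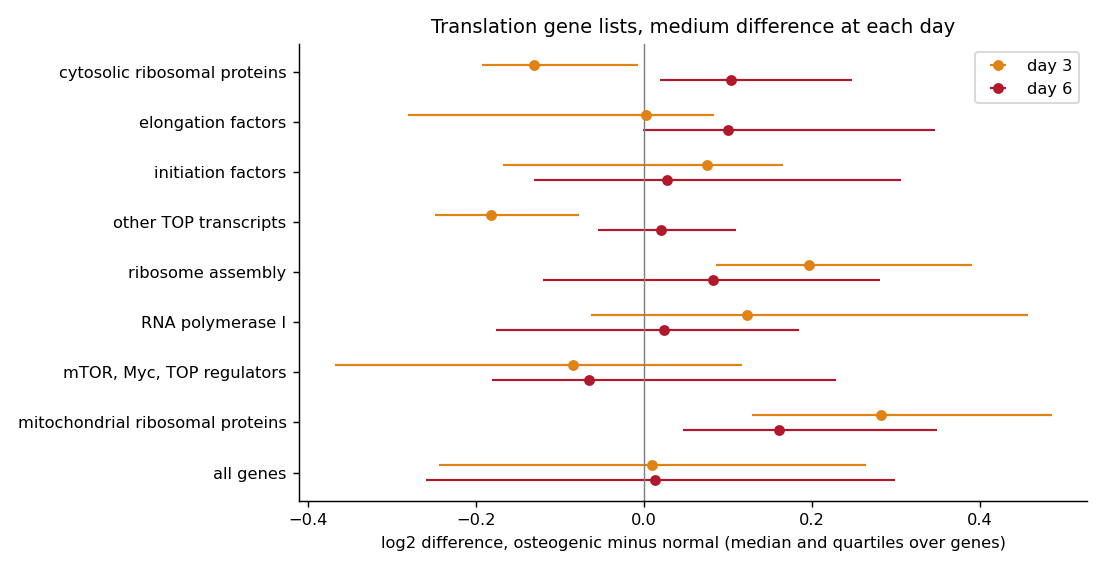
Median log2 difference between osteogenic and normal medium at day 3 and day 6 for the measured genes of each list, with lines from the lower to the upper quartile over genes. The medians of cytosolic ribosomal proteins, other TOP transcripts and the mTOR, Myc and TOP regulators lie left of zero at day 3. Those of ribosome assembly, mitochondrial ribosomal proteins, elongation factors, initiation factors and RNA polymerase I lie right of it at both days. Among these lists, only the mitochondrial one has both quartiles right of zero at both days.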

How the data were processed

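Per the labels' protocols, total RNA of the 4 cultures was turned into cRNA by in vitro transcription with an Affymetrix kit, and each cRNA was hybridised to a mouse expression array. The authors deposited 1 intensity per probe set on a linear scale. The mean of each array was 500 with 2% trimmed at each end. How probes were summarised is not given in the sources used here. Gene names came from GEO's platform annotation, and all 50 members matched RefSeq by Entrez ID. From the deposited intensity, arrays were shifted to a common 75th percentile by factors of 0.988 to 1.02, floored at the pooled 50th percentile and taken to log2. Members and gene lists were chosen with earlier results of these data known. Named were the highest and lowest members in each comparison, the brightest and dimmest, stalk proteins, Rpsa and paralog pairs, and up to 4 genes per related list. No p-value compares 2 arrays. Medium and day were fitted in limma 3.58.1 (R 4.3.3). The fit was also run on simulated data with medium effects of more than 2-fold, equal at both days, and without a day effect. That run does not bear on small differences, on the day term or on medium effects that differ by day. Precision is limited by the number of arrays. Alternatives changed the scaling, the floor, the probe set that stands for a gene, the brightest members kept and the variance estimate.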

Additional observations from a re-analysis of the deposited data

Results flagged for a closer look

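The medium difference had opposite signs at the 2 days for several results, and with 1 array per group none of these differences was tested. For the 46 measured ribosomal protein genes the median was 0.10 at day 6 and −0.13 at day 3, which is 0.234 apart on the log2 scale. For the 35 at a signal of 20000 or more the medians of 0.10 and −0.13 were also 0.234 apart. Fau, the ribosomal protein outside the symbol rule, had 0.15 at day 6 and −0.10 at day 3, a gap of 0.251. The other TOP transcripts had medians of 0.020 at day 6 and −0.18 at day 3, a gap of 0.202. Among single genes Rplp2 had 0.10 at day 6 and −0.15 at day 3, a gap of 0.256, and Rps29 had 0.11 and −0.13, a gap of 0.239. After quantile normalization Rplp2 had −0.024 at day 6 and 0 at day 3, and Rps29 had 0.018 and 0.043, so neither kept its opposite signs. Nor did Fau after the shift to the cre controls, with 0.089 at day 6 and 0.035 at day 3. Rpl39 had 1.06 at day 6 and −0.64 at day 3, a gap of 1.70, on signals of 116 to 246. Rpl7l1 went the other way, with −0.23 at day 6 and 0.19 at day 3, a gap of −0.423.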

How the results depend on the processing

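No paired analysis was possible because each group had 1 array and the labels give no replicate numbers. For the same reason no array could be left out. Of the values under other settings for the main results, 103 kept the sign and stayed within the error of a probe set or within 1.5 times the main count. Of the rest, 12 moved further and 9 turned sign. For named genes and related lists, 625 stayed and 93 moved. Quantile normalization gives each array the same values at the same ranks, which by itself brings genes that fill the brightest ranks near zero. Under it the members' median was 0.020 at day 3, 0.0036 at day 6 and −0.0028 between days in normal medium. The members' median was −0.013 between days in osteogenic medium and −0.0073 for the change of the medium difference. With the arrays shifted to the cre controls, added after the data were seen, it was 0.0056 at day 3, 0.050 between days in normal medium and 0.022 for the change. Without the probe sets ending _x_at, _s_at or _a_at, 21 members were left, with medians of 0.035 at day 3, −0.030 between days in normal medium and −0.040 in osteogenic medium. Without members among the brightest 1% of probe sets, 10 were left, with 0.083 at day 3, 0.011 between days in normal medium and 0.12 in osteogenic medium. With no floor and no filter, 4 members at day 3, 3 at day 6, 4 between days in normal medium and 3 in osteogenic medium passed 2-fold, where 24.6%, 26.3%, 22.5% and 26% of all 18193 genes did. Among members at 20000 or more, a choice added later, 0 passed at day 3, at day 6 or between days in osteogenic medium. The cause was not tested in any of these. The lone arrays, the crowding at the top of the range and the shared probe sets limit the small differences, and genes under the floor have no order.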
